A study of Rattus norvegicus with 18 samples.

Results

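The type 2 and alternative macrophage activation genes described here were 10 genes, taken by name from the 22081 genes of the deposited tables. They comprised the alarmin Il33, the receptors Il1rl1 and Il4r, the secreted effector Retnla, the enzyme Arg1, the chitinase family genes Chia, Chi3l1 and Chit1, and the macrophage surface receptors Mrc1 and Cd163. All 10 genes were present in the tables and passed the filter on low counts at every time point. The RNA-seq libraries came from the lungs of 18 male F344 rats, in 6 groups of 3 animals. Control rats received the vehicle, saline with Tween 80, and MWCNT rats received MWNT-7, a straight multiwalled carbon nanotube, at 0.5 mg/kg body weight, suspended in that vehicle. Both were instilled into the trachea every 4 weeks from 9 weeks of age, and lungs were taken after 0.5, 1 and 2 years. Each library was made from a portion of the accessory lobe, tissue with tumor nodules visible at necropsy was left out, and the portions were whole tissue that could hold smaller lesions. Age, number of instillations and lung burden increased together with the year, so their contributions to a change over time cannot be told apart.

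Type 2 immunity is the response of tissues to helminths, allergens and injury. Damaged barrier cells release the alarmin interleukin-33, which acts through the receptor encoded by Il1rl1 on mast cells, innate lymphoid cells and T helper cells, and these cells make interleukin-4 and interleukin-13. Both cytokines signal through the receptor subunit encoded by Il4r and the transcription factor STAT6, and macrophages exposed to them take up the alternatively activated state, with high arginase, resistin-like molecule alpha, chitinase-like proteins and mannose receptor. In rodent lungs epithelial cells also make interleukin-33, resistin-like molecules and chitinases, so none of these transcripts belongs to macrophages alone.

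To show the regulatory letters next to the genes whose levels differed most between the groups, the 250 bases before the annotated transcription start were taken from RefSeq for rat assembly GRCr8, a newer build than the one used for the tables. Windows matched 9 of the 10 genes, with 11 windows because Il33 and Chit1 have 2 starts each, and Arg1 had none in the table. Shown are Retnla, Chia and Chi3l1, which were the members furthest above control at Year 0.5, and Il1rl1, the receptor whose window held the STAT6 letters. Capitals mark matches to the motifs searched, on either strand. The letters searched were TTCNNNNGAA, the spacing bound by STAT6, TTCNNNGAA, the spacing of other STAT proteins, TGANTCA, bound by AP-1, and TATAAA, the TATA box.
Retnla (chr11:65426187-65426436, minus strand): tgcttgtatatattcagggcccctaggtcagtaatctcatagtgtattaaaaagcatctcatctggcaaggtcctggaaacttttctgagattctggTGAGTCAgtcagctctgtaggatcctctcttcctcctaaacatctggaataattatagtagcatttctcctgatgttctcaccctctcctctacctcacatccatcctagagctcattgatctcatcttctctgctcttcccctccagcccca
Chia (chr2:196302437-196302686, plus strand): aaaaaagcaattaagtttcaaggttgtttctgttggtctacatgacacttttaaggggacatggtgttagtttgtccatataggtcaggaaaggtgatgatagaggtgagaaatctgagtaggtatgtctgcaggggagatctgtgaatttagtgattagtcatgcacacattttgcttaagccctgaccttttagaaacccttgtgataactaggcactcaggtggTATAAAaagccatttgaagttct
Chi3l1 (chr13:48193589-48193838, plus strand): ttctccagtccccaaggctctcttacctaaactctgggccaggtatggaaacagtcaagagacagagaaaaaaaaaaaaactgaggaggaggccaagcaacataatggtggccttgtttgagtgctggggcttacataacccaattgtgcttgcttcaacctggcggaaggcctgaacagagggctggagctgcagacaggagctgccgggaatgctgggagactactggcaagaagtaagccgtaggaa
Il1rl1 (chr9:50203388-50203637, plus strand): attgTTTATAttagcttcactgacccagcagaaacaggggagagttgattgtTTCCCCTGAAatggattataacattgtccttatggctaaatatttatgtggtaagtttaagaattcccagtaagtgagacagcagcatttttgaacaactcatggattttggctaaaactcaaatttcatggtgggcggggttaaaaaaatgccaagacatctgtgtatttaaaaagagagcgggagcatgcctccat
The STAT6 spacing was found in 1 of the 11 windows, that of Il1rl1, 198 bases before the start, and in 6.25% of 33469 such windows of all rat genes. No window of these genes held the spacing of other STAT proteins, which 7.67% of all windows held. The AP-1 letters stood in 2 windows, those of Retnla, 153 bases before the start, and of the upstream start of Chit1, against 6.34% of all windows. The TATA box letters stood in 3 windows, including that of Chia, 23 bases before the start, against 12.9% of all windows. A match in these windows describes letters only, and distal enhancers were not examined.

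In the tables, which use assembly Rnor_6.0, the genes lie on 7 chromosomes, with a few close neighbours. Chit1 (chr13:50974872-50994643) and Chi3l1 (chr13:51022681-51030802) stand 28038 bases apart on the plus strand. Retnla (chr11:54543731-54545230, minus strand) lies between the resistin family genes Retnlg and Retnlb, at 29290 and 20242 bases. Il1rl1 (chr9:47134034-47182170) lies between Il1rl2 and Il18r1, 2 other receptors of the interleukin-1 family.

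Between MWCNT and control lungs, 6 of the 10 genes passed the criterion of a Benjamini-Hochberg adjusted p under 0.05 with a log2 fold change over 1 in either direction at Year 0.5, 6 at Year 1 and 9 at Year 2, by edgeR's quasi-likelihood test on the 6 rats of each year. Of all genes tested, 9.1% passed at Year 0.5, 10.2% at Year 1 and 16.4% at Year 2. The 10 genes were chosen with earlier results of these data known, so these shares are no test of the set. Retnla, Chia, Chi3l1 and Arg1 were higher in MWCNT lungs at all 3 time points. Mrc1 passed at Year 0.5 and Year 2, and Il1rl1 at Year 1 and Year 2. Chit1 was lower at Year 0.5 and Year 2, Cd163 at Year 1, and Il33 and Il4r at Year 2. Counted by direction, 5, 5 and 6 genes were higher and 1, 1 and 3 were lower. The shares of all genes called higher were 6.07%, 6.13% and 8.17%, and those called lower were 3.03%, 4.09% and 8.22%. By the adjusted p alone, 9, 10 and 10 of the genes differed, against 38.8%, 41.2% and 49.2% of all genes. The median log2 fold change of the 10 genes was 0.97, 0.92 and 1.73 at the 3 time points, beside medians of -0.02, 0.00 and -0.01 over all genes tested. The groups did not overlap in TMM-scaled CPM (library-size scaled counts) for 8, 10 and 10 of the genes, while 51.8%, 54.9% and 59.8% of all genes tested had such groups.

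**Figure D1:**
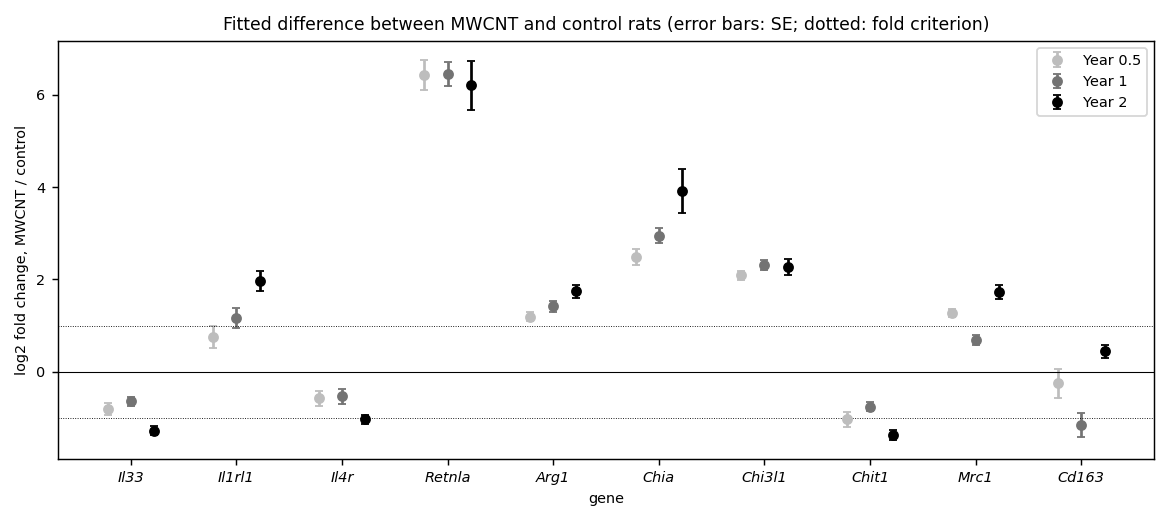
Log2 fold change of MWCNT over control for each of the 10 genes (vertical axis) at the 3 time points (grey to black points in order of year), with the SE as error bars and dotted lines at the fold criterion of 1. Retnla stood above 6 at all 3 time points, while Il33, Il4r and Chit1 were below 0 at each.

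Il33, the alarmin, was an abundant transcript in control lungs and was lower in MWCNT lungs. Its level in control rats was 406, 395 and 307 TPM, a unit scaled for transcript length and library size, at Year 0.5, 358, 316 and 311 at Year 1 and 324, 368 and 340 at Year 2. In MWCNT rats it was 214, 168 and 192 at Year 0.5, 202, 166 and 171 at Year 1 and 105, 135 and 127 at Year 2. No MWCNT rat of any year reached the lowest control rat, and the Year 2 MWCNT rats lay below all those of the earlier years. Its log2 fold change was -0.81 (SE 0.12) at Year 0.5, -0.64 (SE 0.10) at Year 1 and -1.27 (SE 0.09) at Year 2, with adjusted p-values of 0.00098, 0.0011 and 7.1e-06 in edgeR, and only the last passed the fold criterion.

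Il1rl1, the interleukin-33 receptor, was a low transcript that was higher in MWCNT lungs. Its level was 2.71, 2.44 and 2.74 TPM in the control rats of Year 0.5, 1.95, 2.72 and 2.55 in those of Year 1 and 1.88, 2.17 and 3.38 in those of Year 2. In the MWCNT rats it was 3.49, 5.31 and 3.12 TPM, 3.55, 5.33 and 4.73 TPM, and 7.95, 7.54 and 9.43 TPM in the same order of years. Every MWCNT group lay above its own controls, and each Year 2 MWCNT rat was higher than all other rats. The counts behind these levels were 48 to 82 in control rats and 90 to 279 in MWCNT rats. Fitted log2 fold changes were 0.75 (SE 0.23, adjusted p = 0.031), 1.16 (SE 0.21, adjusted p = 0.0028) and 1.97 (SE 0.21, adjusted p = 6.6e-05) at the 3 time points in edgeR. At Year 1 it fell under the fold criterion without MWCNT replicate 2, at 0.97. The neighbouring genes Il1rl2 and Il18r1 did not pass the adjusted p at any time point.

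Mast cells carry the interleukin-33 receptor, and mast cell markers moved over the same years. Of 7 mast cell markers, all detected in every group, 2 were called higher and 1 lower at Year 0.5, 5 higher and none lower at Year 1, and 5 higher and 1 lower at Year 2. The one called lower was Kit, a growth factor receptor that other lung cells also express, which averaged 126, 98.1 and 109 TPM in control rats and 55.9, 48.5 and 37.8 TPM in MWCNT rats. Kit made up most of the list in control lungs, so the summed level of all 7 was 102 to 161 TPM in the Year 0.5 control rats and 72.8 to 83.6 TPM in the MWCNT rats, against 116 to 140 TPM and 300.3 to 361 TPM at Year 2. The mast cell protease genes moved the other way, with log2 fold changes of 2.33, 3.91 and 5.30 for Cpa3 and 2.20, 3.43 and 6.16 for Tpsb2. Tpsab1, a tryptase gene, was at 3.94 and 7.86 at Year 1 and Year 2 and was not tested at Year 0.5. Without Kit, a sum computed after its values had been seen, the other 6 markers reached 9.50 to 15.4 TPM in the control rats of Year 0.5, 15.2 to 18.1 TPM in those of Year 1 and 19.1 to 20.1 TPM in those of Year 2. In the MWCNT rats that sum was 9.76 to 37.2 TPM at Year 0.5, 33.1 to 95.1 TPM at Year 1 and 259.7 to 325 TPM at Year 2, above all controls of the year at Year 1 and Year 2 and overlapping them at Year 0.5. The part of these cells in the Il1rl1 level was not tested. In whole lung tissue, more cells of a type and more RNA per cell cannot be told apart.

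Il4r, which encodes the receptor chain shared by interleukin-4 and interleukin-13, was lower in MWCNT lungs. It reached 215, 228 and 165 TPM in the control rats of Year 0.5, 235, 153 and 165 in those of Year 1 and 198, 233 and 190.1 in those of Year 2. In the MWCNT rats it reached 153, 99.1 and 118 TPM at Year 0.5, 126, 93 and 106 at Year 1 and 76.6, 89.7 and 94.8 at Year 2. In TPM the groups were apart at each time point, but in scaled CPM they overlapped at Year 0.5. In the fit, the log2 fold change was -0.57 (SE 0.16), -0.53 (SE 0.17) and -1.03 (SE 0.10), with adjusted p-values of 0.023, 0.032 and 3.3e-05 in edgeR. The Year 2 value stood close to the fold criterion and lay inside it without control replicate 2 (-0.96) or without MWCNT replicate 1 (-0.97).

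Markers of several other lung cell types, but not of all, were also lower in the lungs in which Il33 and Il4r were lower. Of 6 alveolar type 1 markers, 0, 1 and 2 were called lower at the 3 time points, and of 6 endothelial markers 2, 1 and 4, with none of either list called higher. The summed endothelial level was 2081 to 2485 TPM in the Year 2 control rats and 725 to 989 TPM in the Year 2 MWCNT rats. The summed alveolar type 1 level was 4940 to 5551 TPM in those control rats and 2508 to 2750 TPM in the MWCNT rats. Of 4 club cell markers, 2, 1 and 1 were called lower and none higher, and their summed level was 18171 to 32942 TPM over the control rats and 10492 to 15540 TPM over the MWCNT rats. Of 8 T cell and innate lymphoid cell markers tested, 0, 0 and 5 were called lower and 2, 1 and 1 higher, with Cd4, which rat macrophages also carry, called higher at each time point, and at Year 2 the list summed to 235 to 257 TPM in control rats and 239 to 273 TPM in MWCNT rats. Alveolar type 2 markers went the other way, with 3, 3 and 5 of 8 called higher at the 3 time points and none lower. The part of any of these cells in the lower Il33 and Il4r levels was not tested.

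**Figure D2:**
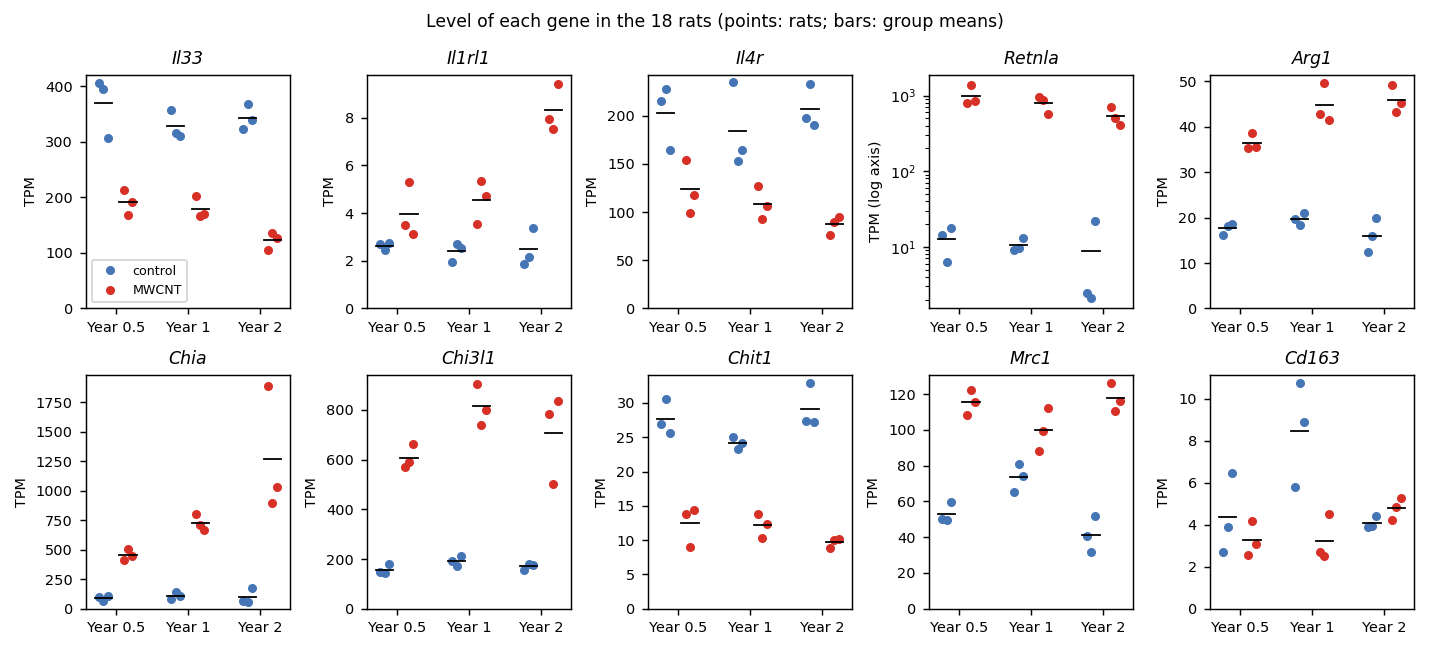
Level of each of the 10 genes in TPM (vertical axes, starting at 0 except for the log axis of Retnla) in the 3 control (blue) and 3 MWCNT (red) rats of each year, with bars at the group means. The MWCNT rats lay above the controls for Retnla, Arg1, Chia, Chi3l1, Mrc1 and Il1rl1 at every time point and below them for Il33, Il4r and Chit1.

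Retnla, which encodes the secreted resistin-like molecule alpha, a standard marker of alternatively activated macrophages in rodents, differed most between the groups of all 10 genes. Control rats had 14.3, 6.3 and 17.5 TPM at Year 0.5, 9.19, 9.6 and 13.2 at Year 1 and 2.43, 2.11 and 21.8 at Year 2. MWCNT rats had 792, 1370 and 836 TPM at Year 0.5, 957, 883 and 575 at Year 1 and 699, 502 and 412 at Year 2. The lowest MWCNT rat was far above the highest control rat, and the third control rat of Year 2 stood apart from the other two. These levels gave a log2 fold change of 6.43 (SE 0.33), 6.46 (SE 0.26) and 6.20 (SE 0.52), or 86.1-fold, 87.8-fold and 73.7-fold, with adjusted p-values of 5.5e-06, 1.3e-06 and 1.8e-05 in edgeR. The Year 2 controls had only 9, 8 and 75 counts, so the size of that fold change is uncertain. When each rat was left out it ran from 5.71 to 8.07, the latter without control replicate 3. Among the other resistin family genes, Retn and Retnlb had too few counts to be tested at any time point. Retnlg was lower in MWCNT lungs at Year 2, with a log2 fold change of -1.28 (SE 0.47) and an adjusted p of 0.049 in edgeR, and did not pass at Year 0.5 or Year 1.

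Arg1, which encodes the arginase that turns arginine into ornithine, was higher in MWCNT lungs by a smaller amount than Retnla. It stood at 16.1, 18.2 and 18.7 TPM in the Year 0.5 control rats, 19.8, 18.4 and 21 in those of Year 1 and 12.3, 15.9 and 19.9 in those of Year 2. In MWCNT rats it stood at 35.4, 38.6 and 35.5 TPM, then 42.8, 49.6 and 41.6, then 49.1, 43.3 and 45.3. The 9 MWCNT rats all lay above the 9 control rats. Arg1 had a log2 fold change of 1.19 (SE 0.10), 1.42 (SE 0.12) and 1.74 (SE 0.15), with adjusted p-values of 4.3e-05, 4.5e-05 and 1.8e-05 in edgeR.

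Other genes of arginine and polyamine metabolism were called higher in 3 of 16 tested at Year 0.5, 1 of 15 at Year 1 and 4 of 15 at Year 2, and none was called lower. The shares of all genes called higher were 6.07%, 6.13% and 8.17%, so the Year 1 count was near that share. The median log2 fold change of the tested genes of this list was 0.39, 0.34 and 0.16. Slc7a2, a transporter of cationic amino acids, had a log2 fold change of 1.46 (SE 0.20) at Year 2 and Pycr1, which makes proline, one of 1.51 (SE 0.36). Arg2, the mitochondrial arginase, had one of 1.19 (SE 0.27, adjusted p = 0.0059 in edgeR) at Year 2 and did not pass earlier. Nos2, the inducible nitric oxide synthase that competes for arginine, was looked up after its values were seen, and its log2 fold change was -0.04, -0.05 and -0.24 with adjusted p-values of 0.9, 0.8 and 0.33 in edgeR.

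The chitinase family split by member. Chia, an acidic chitinase, and Chi3l1, a chitinase-like protein without enzyme activity, were higher in MWCNT lungs, and Chit1, the chitotriosidase, was lower. The levels of Chia in control rats were 96.5, 64.7 and 109 TPM at Year 0.5, 86.1, 140 and 108 at Year 1 and 65.1, 54.9 and 178 at Year 2. In MWCNT rats they were 415, 506 and 443 TPM at Year 0.5, 806, 709 and 671 at Year 1 and 1890, 893 and 1031 at Year 2. The ranges of the 3 MWCNT groups did not meet and increased with the year, and the 3 control groups overlapped. The log2 fold change of Chia was 2.48 (SE 0.17), 2.95 (SE 0.16) and 3.91 (SE 0.48), with adjusted p-values of 1.9e-05, 4.1e-06 and 0.00017 in edgeR. The Year 2 value was 4.61 without control replicate 3, the same animal that was high in Retnla, and 3.48 without MWCNT replicate 1.

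Chi3l1 was at 147, 144 and 181 TPM in the control rats of Year 0.5, 193, 170.3 and 212 in those of Year 1 and 157, 180.4 and 175 in those of Year 2. The MWCNT rats had 569, 592 and 662 TPM at Year 0.5, 903, 740 and 799 at Year 1 and 784, 502 and 834 at Year 2. All MWCNT rats were above all control rats, and the MWCNT group of Year 2 overlapped both earlier ones. In the fit its log2 fold change was 2.09 (SE 0.10), 2.32 (SE 0.11) and 2.27 (SE 0.18), with adjusted p-values of 4.5e-06, 2.3e-06 and 1.1e-05 in edgeR.

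Chit1, the neighbour of Chi3l1 on chromosome 13, went the other way. Its levels were 27, 30.6 and 25.7 TPM in the control rats of Year 0.5, 25, 23.3 and 24.1 in those of Year 1 and 27.4, 32.9 and 27.2 in those of Year 2. In MWCNT rats they were 13.9, 8.98 and 14.4 TPM, 13.9, 10.4 and 12.4 TPM, and 8.92, 10.1 and 10.2 TPM. All MWCNT rats were below all control rats. For Chit1 the log2 fold change was -1.03 (SE 0.16), -0.76 (SE 0.10) and -1.36 (SE 0.10), with adjusted p-values of 0.0013, 0.00065 and 1.0e-05 in edgeR. The Year 0.5 value fell inside the fold criterion without control replicate 2 (-0.95) or without MWCNT replicate 2 (-0.83).

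Of the chitin-binding relatives, Chi3l3 had at most 2 counts in any rat. Ctbs, the lysosomal di-N-acetylchitobiase, had log2 fold changes of 0.14, 0.28 and 0.34 and was not called. Chid1 was called lower at Year 2, with an adjusted p of 5.5e-05 in edgeR, where control rats had 33 to 42 counts and MWCNT rats 0 to 1. Its counts varied widely within the other groups, from 4 to 78 and 1 to 32 in the control rats of Year 0.5 and Year 1 and from 1 to 72 and 1 to 117 in the MWCNT rats.

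Mrc1, the mannose receptor of macrophages, was higher in MWCNT lungs. Control rats had 50.4, 49.6 and 59.7 TPM at Year 0.5, 65.4, 81.1 and 74 at Year 1 and 40.6, 31.6 and 51.9 at Year 2. MWCNT rats had 108, 122 and 116 TPM at Year 0.5, 88.4, 99.2 and 112 at Year 1 and 126, 111 and 116 at Year 2. The groups were apart at every time point, the Year 1 controls being the highest of the control groups. Mrc1 had a log2 fold change of 1.26 (SE 0.09), 0.68 (SE 0.11) and 1.73 (SE 0.16), with adjusted p-values of 1.9e-05, 0.0013 and 3.1e-05 in edgeR, so the Year 1 value did not reach the fold criterion.

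Cd163, the scavenger receptor for haptoglobin-hemoglobin complexes, gave no common direction. Control rats had 2.71, 3.89 and 6.47 TPM at Year 0.5, 5.79, 10.7 and 8.9 at Year 1 and 3.89, 3.96 and 4.43 at Year 2. MWCNT rats had 2.56, 4.19 and 3.09 TPM at Year 0.5, 2.7, 2.5 and 4.53 at Year 1 and 4.21, 4.87 and 5.29 at Year 2. The groups overlapped at Year 0.5 and, in TPM but not in scaled CPM, at Year 2, and at Year 1 all MWCNT rats were below the controls. For Cd163 the log2 fold change was -0.25 (SE 0.31, adjusted p = 0.56), -1.15 (SE 0.26, adjusted p = 0.0068) and 0.44 (SE 0.14, adjusted p = 0.023) in edgeR. Leaving out control replicate 2 brought the Year 1 value to -0.96, inside the fold criterion.

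Macrophage markers were higher in the same lungs. Of 13 markers, all detected in every group, 11, 11 and 12 were called higher at the 3 time points and none lower, with a median log2 fold change of 1.83, 1.68 and 2.07. Their summed level was 24499 to 30756 TPM over the control rats and 55744 to 65276 TPM over the MWCNT rats. Nearly all of that sum was Lyz2, lysozyme, which alveolar type 2 cells also make. At Year 0.5 it averaged 24942 of 25532 TPM in control rats and 55904 of 57573 TPM in MWCNT rats. Of 8 alveolar type 2 markers, 3, 3 and 5 were called higher and none lower. These surfactant and lamellar body genes, which define lung tissue, summed to 28152 TPM or more in every rat. Of 6 neutrophil markers, of which 4 were tested, 1, 2 and 2 were called higher and none lower. The log2 fold changes of Retnla, Chia and Chi3l1 were above the macrophage median at each time point and those of Arg1 and Mrc1 below it. Single markers spread widely around that median, from Csf1r at 0.34, 0.34 and 0.55 to Marco at 6.22, 4.99 and 4.64. Of these genes only Retnla lay outside that range, above it at each time point. Cd68, at 2.44, 2.50 and 3.03, exceeded Chi3l1 each time. The part of cell numbers in these differences was not tested.

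**Figure D3:**
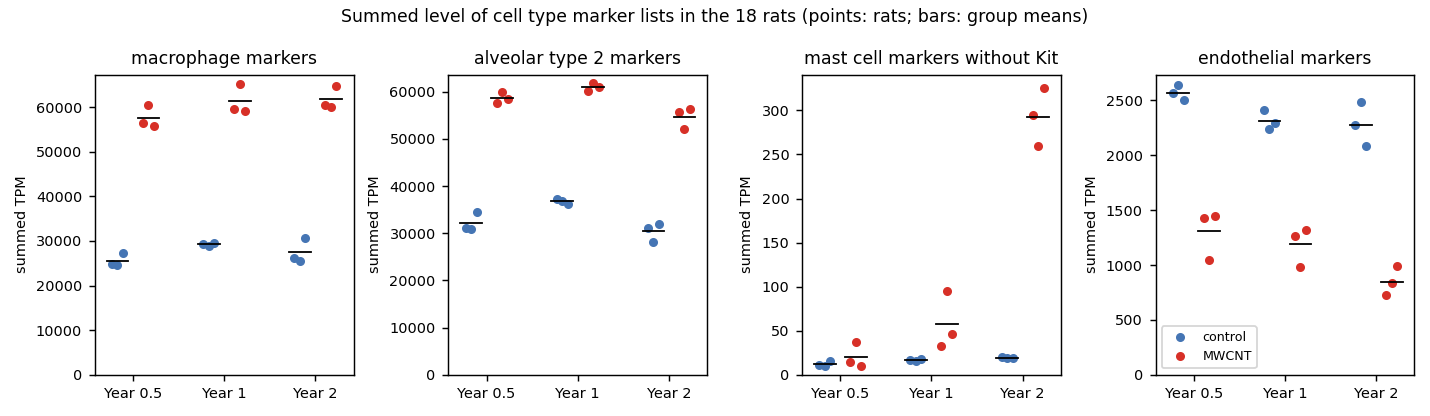
Summed level of the macrophage, alveolar type 2, mast cell (without Kit) and endothelial marker lists in TPM (vertical axes from 0) in the control (blue) and MWCNT (red) rats of each year, with bars at the group means. The macrophage sum, nearly all of it Lyz2, which alveolar type 2 cells also make, was above the controls in all MWCNT rats. Mast cell markers without Kit were above all controls of the same year in the 3 MWCNT rats of Year 1 (33.1 to 95.1 TPM) and of Year 2 (259.7 to 325 TPM). At Year 0.5 they overlapped the controls.

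None of the 10 genes passed the adjusted p and fold criterion between Year 2 and Year 0.5 in control rats, where 0.633% of all genes did. In edgeR's test of that contrast 1 gene, Mrc1, had an unadjusted p below 0.05, as 24.0% of all genes did. In MWCNT rats 2 of the genes passed, against 2.34% of all genes. Chia was higher at Year 2 than at Year 0.5 by a log2 fold change of 1.57 (SE 0.35, adjusted p = 0.0067) and Il1rl1 by 1.13 (SE 0.22, adjusted p = 0.0028) in edgeR. Without MWCNT replicate 3 of Year 0.5 Il1rl1 was at 0.96, inside the fold criterion. Il33 and Arg1 passed the adjusted p alone, as 13.5% of all genes did, Il33 at -0.56 (SE 0.12, adjusted p = 0.0041 in edgeR) and Arg1 at 0.41 (SE 0.12, adjusted p = 0.035). Retnla was at -0.81 (SE 0.33, adjusted p = 0.12), which did not pass.

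Whether the MWCNT effect itself differed between years was tested as the interaction of treatment and time over the 18 rats. Between Year 1 and Year 0.5, no gene of the 10 passed the adjusted p of 0.05, and 0% of all genes did. 2 of the 10, Mrc1 and Cd163, had an unadjusted p below 0.05 in edgeR, against 8.49% of all genes. Between Year 2 and Year 0.5 none of the 10 passed in edgeR, where 1.31% of all genes did, and 5 had an unadjusted p below 0.05, against 13.8% of all genes. The gene closest to passing was Il1rl1, whose log2 fold change was larger at Year 2 by 1.22 (SE 0.33, adjusted p = 0.079). For Chia the difference was 1.43 (SE 0.50, adjusted p = 0.19) and for Arg1 0.55 (SE 0.19, adjusted p = 0.17). The shares of all genes called were not computed for the settings that follow. DESeq2 called 1 of the genes. Without control replicate 3 of Year 2, the rat that was high in Retnla and Chia, edgeR called 3, Arg1, Chia and Il1rl1, and it called 1, Il1rl1, without MWCNT replicate 2 of Year 0.5.

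The interaction between Year 2 and Year 1 was added after the values of Mrc1 and Cd163 had been seen. By that test 1 of the 10 genes passed, Mrc1, against 0.478% of all genes. Its log2 fold change was larger at Year 2 by 1.06 (SE 0.20, adjusted p = 0.031 in edgeR). For Cd163 the difference was 1.61 (SE 0.40, adjusted p = 0.067) and for Il33 -0.63 (SE 0.16, adjusted p = 0.073), which did not pass. The Mrc1 call was lost when only the rats compared entered the fit, and when any of 8 of the 12 rats was left out, the adjusted p then reaching 0.096 and the difference staying between 0.89 and 1.24.

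Transcripts of the type 2 cytokines, and of alarmins other than Il33, were at or near 0. Il5, Il9 and Il13 had no count in any of the 18 rats, which allows up to 3 counts per library of 13297643 to 21130757 total counts, and Il4 had at most 1 count in a rat. Il25 and Tslp, 2 other alarmins, had at most 6 and 4 counts. The counts of the 6 genes were too low for testing. Differences in these cytokines were not detectable at this depth.

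Of 83 other genes of the related pathways, 79 were in the tables and 62 were tested at each time point. Of these, 15 were called higher and 2 lower at Year 0.5, 13 and 3 at Year 1, and 17 and 7 at Year 2. That was 27.4%, 25.8% and 38.7% of those tested, beside 9.1%, 10.2% and 16.4% of all genes tested. The lists were chosen with earlier results of these data known, so the higher shares are no test of these pathways. Many listed genes are expressed by macrophages, whose markers were higher in these lungs, and the part of cell numbers was not tested. Among 16 genes of the type 2 receptors and the STAT6 pathway, 2, 3 and 3 were called higher and 0, 0 and 1 lower, with medians of 0.29, 0.28 and 0.45. Those higher at Year 2 were Csf2rb, the common beta chain of the GM-CSF, interleukin-3 and interleukin-5 receptors, at 1.89 (SE 0.08), Irf4, a transcription factor of alternative activation, at 1.55 (SE 0.22), and Crlf2, the receptor chain for thymic stromal lymphopoietin, at 1.21 (SE 0.07). Gata3, the transcription factor of type 2 lymphocytes, was lower at Year 2 by a log2 fold change of -1.07 (SE 0.16, adjusted p = 0.00059 in edgeR), and Stat6 was at 0.04, -0.03 and 0.04. Gata3 is also 1 of the 5 T cell and innate lymphoid cell markers called lower at Year 2, with Cd3e at -1.39, Cd3d at -1.36, Cd3g at -1.63 and Cd8a at -1.36, and the part of these cells in its level was not tested.

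Among 18 other alternative activation genes, 6, 6 and 7 were called higher and 2, 3 and 4 lower, with medians of 0.27, 0.23 and 0.75. Over all genes tested, 6.07%, 6.13% and 8.17% were called higher and 3.03%, 4.09% and 8.22% lower. Folr2, a folate receptor of tissue macrophages, had a log2 fold change of 3.47 (SE 0.18) at Year 2, Trem2, a lipid-sensing receptor, 2.81 (SE 0.08), and Msr1, a scavenger receptor, 2.45 (SE 0.13). The genes called lower at Year 2 were Ccl11, the eosinophil chemokine eotaxin, at -2.51 (SE 0.39), Lyve1, which lymphatic endothelium and some macrophages carry, at -2.08 (SE 0.09), Klf4 at -1.30 (SE 0.13) and Alox15, a lipoxygenase, at -1.27 (SE 0.25). Alox15 was also called lower at the earlier time points, at -1.38 (SE 0.19) and -1.40 (SE 0.17). It is an eosinophil marker as well, and of 5 such markers Epx and Prg2 had too few counts to be tested. Of the 3 tested, none was called higher and 1, 1 and 2 were called lower, Alox15 at each time point and Ccr3 at Year 2. Control rats averaged 22.8, 24.2 and 25.4 TPM of Alox15, 15.6, 17.8 and 18.5 TPM of Siglec5 and 2.07, 3.36 and 3.58 TPM of Ccr3.

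Genes of classical activation, the state opposed to the alternative one in textbook accounts, were called higher in 4 of 10 tested at Year 0.5, 3 of 11 at Year 1 and 3 of 11 at Year 2, with none called lower. Their median log2 fold change was 0.59, 0.72 and 0.30. Of all genes tested, 9.1%, 10.2% and 16.4% were called in either direction. Of the 14 genes of the list, Il6, Il12a and Il12b had too few counts to be tested at any time point, and Tnf at Year 0.5. At Year 0.5 control and MWCNT rats had 1 to 3 and 10 to 22 counts of Il6. For Il12b these were 3 to 4 and 10 to 18, and for Tnf 0 to 1 and 1 to 110. Il12a went the other way, at 8 to 15 and 1 to 6. Cd86, a costimulatory ligand, was at 2.10 (SE 0.10) at Year 2, its partner Cd80 at 1.32 (SE 0.28) and Irf5 at 1.28 (SE 0.09), each with an adjusted p of 0.004 or lower in edgeR. Both this list and the alternative activation list had called genes at each time point.

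**Figure D4:**
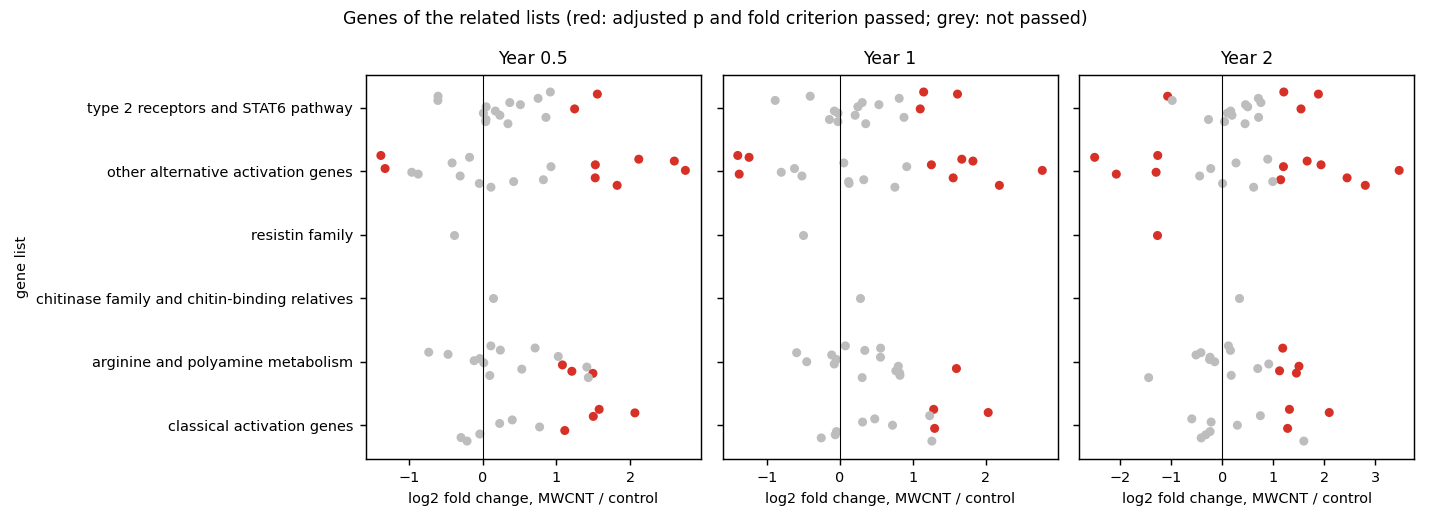
Log2 fold change of MWCNT over control (horizontal axis) for the tested genes of 6 related lists at each time point, with genes past the adjusted p and fold criterion in red and the others in grey. Red points stood on both sides of 0 in the list of other alternative activation genes and only above 0 in the classical activation list, and Chid1 is left out because its MWCNT counts at Year 2 were 0 to 1.

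The genes with the most similar course over the 6 group means, by the smallest root mean square difference of centred log2 CPM among 14843 genes, differed from member to member. For Il33 they were Bmp6 and Tspan13, at differences of 0.02 and 0.03. Il4r was nearest to Inpp1 and Pdgfa, at 0.02 and 0.03. For Arg1 they were Psap and RT1-Ba, at 0.07 and 0.07, and for Chi3l1 Itgb8 and Slc7a7, at 0.12 and 0.13. Chia was nearest to Esr1 and Tmem45b, at 0.14 and 0.17. Mrc1 was nearest to Rab42 and Myo3b, at 0.10 and 0.10, and Il1rl1 to AABR07065750.1 and Lingo1, at 0.08 and 0.09. For Chit1 they were AABR07051450.1 and C1qtnf2, at 0.05 and 0.06, and for Cd163 AABR07051518.1 and Il22ra1, at 0.16 and 0.16. Retnla was nearest to Slc26a4 at 0.64 and Mmp12 at 0.72. These differences are in log2 units and were not scaled to the size of the change. The root mean square of the centred course itself was 3.30 for Retnla and 0.42 for Cd163. With 6 group means that fall into control and MWCNT values, many genes that differ by a like amount come close.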

How the data were processed

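RNA-seq of 18 rat lungs was analysed from the deposited gene tables, 1 per time point. Per the methods of the study, the authors mapped reads to the rat genome in CLC Genomics Workbench 22.0.2, and the labels name Rnor 6.0 and rn6. The deposited raw counts per gene and the deposited TPM were used, and the authors' comparison columns (fold changes and p-values) and their RPKM and CPM were not. Whether counting used strand is not given in the sources used here. Total counts ran from 13297643 to 21130757 per rat.

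Raw counts were filtered with filterByExpr, scaled by TMM and tested with edgeR 4.0.16 (R 4.3.3) by its quasi-likelihood test on the 6 rats of each year, with Benjamini-Hochberg adjustment over 14315, 14345 and 14361 genes and the criterion of the study, an adjusted p below 0.05 with an absolute log2 fold change above 1. Interactions and time effects came from 1 model of the 18 rats. TPM gave the levels. The code was tested on simulated data. Alternatives were DESeq2 1.42.0, limma 3.58.1 on log2 TPM, other filters and scalings, a replicate block and leaving out each rat. Each rat was a separate animal and the labels do not pair rats across groups. The p-values weigh a difference between groups of 3 rats against the spread between animals of the same group. That spread was estimated from all rats in each fit, 6 or 18.

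All 10 genes were named, as were each type 2 cytokine and the nearest genes by group means. Of each related list other than the cell type markers, at most 3 called genes of largest change at Year 2 per direction were named. Outside this rule, and picked with their values known, stand Stat6, Nos2, Ctbs, Chi3l3, Retn, Retnlb, Il1rl2, Il18r1 and Alox15. The same holds for Tnf, Il6, Il12a, Il12b and each cell type marker given by name. The genes and lists were chosen with earlier results of these data known.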

Additional observations from a re-analysis of the deposited data

Results flagged for a closer look

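The effect of MWCNT on Mrc1 differed between Year 1 and Year 2 by the interaction test, with a log2 fold change larger at Year 2 by 1.06 (SE 0.20, edgeR adjusted p = 0.031). The log2 fold change was 0.68 at Year 1 and 1.73 at Year 2, and the MWCNT group means were 99.9 and 118 TPM while the control means were 73.5 and 41.4 TPM. This contrast was added after the values were seen, and the call was lost without any of 8 of the 12 rats compared.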

How the results depend on the processing

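Of 419 recomputed log2 fold changes of the 10 genes, 410 kept their direction and their side of the criterion, 8 no longer passed it and 1 changed sign, Cd163 at Year 0.5, which ran from -0.51 to 0.15 (without control replicate 3) when each rat was left out. The calls of 6, 6 and 9 genes became 10 at Year 1 by the adjusted p alone, and the related pathway genes became 32, 33 and 38 of 62 tested. By the adjusted p alone, 38.8%, 41.2% and 49.2% of all genes differed. Under that rule 4 genes differed over time in MWCNT rats, where 13.5% of all genes did. With the fold criterion as well, 2 genes passed with all rats and 1 to 2 when a rat was left out. For the interaction of Year 2 and Year 0.5, DESeq2 called 1 gene and leaving out a rat gave 0 to 3. For that of Year 2 and Year 1, DESeq2 called 3, the replicate block 2 and the fit of only the rats compared 0. The stricter adjusted p of 0.01 called 0, and leaving out a rat gave 0 to 2. The cause of these differences was not tested, and the shares of all genes called under these settings were not computed. The replicate block moved no other count by over 1.5 times, and rats of the same number deviated together with a correlation of -0.15 to 0.11, so the numbers do not pair them. Il1rl1 at Year 1 did not reach the fold criterion by limma on log2(TPM + 1), at 0.69, or log2(TPM + 0.1), at 0.88. Scaling by library size only shifted the median of all genes by -0.10, -0.13 and -0.17 at the 3 time points. Without 1 rat the adjusted p (edgeR) rose up to 0.12 for Il1rl1 at Year 0.5, 0.087 and 0.086 for Il4r at Year 0.5 and Year 1, and 0.077 for Cd163 at Year 2. With 3 rats per group and 48 to 82 control counts for Il1rl1, small differences could not be detected.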
